A study of Mus musculus with 8 samples.

Results

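Marker genes of olfactory bulb neurons were examined across the 8 arrays of a study of the aging mouse cortex. The genes were *Cdhr1*, *Eomes*, *Tbx21*, *Doc2g* and *Th*, and every probe set whose gene symbol in the deposited signal table is one of these names was taken, which gave 6 probe sets of the 45037 tested and 5 genes of 19761. *Eomes* has 2 probe sets and each of the other genes has 1. The genes were chosen after it was known that *Cdhr1* was high on single arrays of these data, so their signals and the gaps between arrays are given as a description, with no test of their own.

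The RNA came from cerebral cortices of untreated male mice of the strains SAMR1, the senescence-resistant control, and SAMP8, the senescence-accelerated model, at 16 weeks and at 1 year of age, with 2 arrays in each of the 4 groups. The term physiological aging stands for the change from 16 weeks to 1 year in SAMR1, and accelerated aging for that change in SAMP8. Early events are the differences of SAMP8 from SAMR1 at the younger age, and late events those at the older age. The study used 2 mice for each strain and age, but no source says which mouse an array measured, so a p-value reflects only how far these arrays scatter, which may be technical. SAMP8 is an inbred strain and differs from SAMR1 at many loci, so a difference between the strains is not that of 1 gene. In GEO's labels the genotype of all SAMP8 samples is spelled SAMR8, and the groups follow the sample titles instead. The signals are log2 values, so that a difference of 1 is a doubling, and each probe set has its own sensitivity, so that levels are compared between arrays and not between genes.

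The olfactory bulb receives the axons of the olfactory sensory neurons of the nose in structures called glomeruli. Mitral and tufted cells are the projection neurons that carry the signal on to the olfactory cortex, and periglomerular and granule cells are the local interneurons, which are renewed from neuroblasts that migrate into the bulb through adult life. *Cdhr1* encodes a protocadherin that is found in mitral and tufted cells and in photoreceptors. *Eomes* and *Tbx21* encode T-box transcription factors of mitral and tufted cells that are also used by T and NK lymphocytes, *Doc2g* encodes a protein with a pair of C2 domains, and *Th* encodes tyrosine hydroxylase, the rate-limiting enzyme of catecholamine synthesis, which marks dopaminergic periglomerular cells in the bulb and dopamine neurons of the midbrain. In RNA from bulk tissue, more cells of a type and more RNA per cell cannot be told apart.

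The promoters of the 4 genes with wide gaps between arrays are shown because their signals were high on the same arrays. They are RefSeq windows of assembly GRCm38.p6, from 250 bases before to 50 bases after the start of the gene, and capitals mark a match to AGGTGNNA (the core recognised by T-box factors) or TGACGTCA (the cAMP response element).
*Cdhr1*, chr14:37098298-37098597, minus strand: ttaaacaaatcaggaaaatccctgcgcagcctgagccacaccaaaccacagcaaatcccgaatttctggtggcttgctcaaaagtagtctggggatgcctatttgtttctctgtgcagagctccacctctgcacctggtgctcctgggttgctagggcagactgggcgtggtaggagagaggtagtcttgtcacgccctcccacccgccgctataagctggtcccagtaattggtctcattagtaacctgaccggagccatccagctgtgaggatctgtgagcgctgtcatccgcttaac
*Eomes*, chr9:118477939-118478238, plus strand: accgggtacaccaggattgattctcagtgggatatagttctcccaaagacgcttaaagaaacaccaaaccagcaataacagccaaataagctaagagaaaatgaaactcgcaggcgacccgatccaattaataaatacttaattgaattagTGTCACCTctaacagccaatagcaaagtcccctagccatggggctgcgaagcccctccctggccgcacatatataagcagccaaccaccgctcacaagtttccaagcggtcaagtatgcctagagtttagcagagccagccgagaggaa
*Doc2g*, chr19:4003135-4003434, plus strand: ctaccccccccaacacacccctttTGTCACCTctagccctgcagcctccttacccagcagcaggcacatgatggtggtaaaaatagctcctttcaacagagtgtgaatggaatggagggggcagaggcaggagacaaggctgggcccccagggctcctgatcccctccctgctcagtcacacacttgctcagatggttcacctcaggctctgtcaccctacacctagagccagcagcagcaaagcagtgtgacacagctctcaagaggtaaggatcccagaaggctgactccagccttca
*Th*, chr7:142899946-142900245, minus strand: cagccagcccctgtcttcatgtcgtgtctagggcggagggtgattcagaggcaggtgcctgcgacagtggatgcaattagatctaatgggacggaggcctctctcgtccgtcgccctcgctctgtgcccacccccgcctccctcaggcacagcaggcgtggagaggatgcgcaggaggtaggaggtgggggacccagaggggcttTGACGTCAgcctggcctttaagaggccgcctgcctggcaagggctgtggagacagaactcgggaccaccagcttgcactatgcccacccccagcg
The motifs were chosen after the sequences had been read and were searched on both strands in the promoters of all 5 genes, where no matches overlapped. The T-box core was found once each in *Eomes*, *Doc2g* and *Tbx21*. In *Eomes* (its match starts 99 bases before the gene start) and in *Doc2g* (226 bases before) it reads TGTCACCT on the strand shown, and in *Tbx21* (195 bases before) it reads AGGTGGCA. Of all 32851 promoters, 16.0% held this motif. The cAMP response element was found in *Th* alone, 45 bases before the gene start, and 1.79% of all promoters held it. The TATA box was searched as TATAAA, which 0 of the 5 and 13.6% of all promoters held. A homeodomain core was searched as well, with the letters TAATTA, and 0 of the 5 held it against 5.29% of all. A match is a description of the letters in the window.

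*Cdhr1* was high on 1 array of each SAMP8 group. Its signal was 4.63 and 5.0 in SAMR1 at 16 weeks, 4.70 and 4.75 in SAMR1 at 1 year, 6.87 and 4.78 in SAMP8 at 16 weeks and 5.26 and 7.23 in SAMP8 at 1 year, in the order of replicates 1 and 2. Thus SAMP8 16 weeks replicate 1 and SAMP8 1 year replicate 2 stood above the other 6 arrays, which lay between 4.63 and 5.26. The gap between the arrays was 2.09 at 16 weeks, a fold of 4.26, and 1.97 at 1 year, a fold of 3.92. Each was the widest gap in that direction among the 19761 genes, each gene taken by its brightest probe set, the one with the highest mean. The SD of *Cdhr1* was 1.48 in SAMP8 at 16 weeks and 1.39 at 1 year (n = 2), against 0.26 and 0.04 in SAMR1.

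*Eomes*, the first of the T-box genes, had the same 2 high arrays on both probe sets. Probe set 1426001_PM_at read 4.19 and 4.07 in SAMR1 at 16 weeks, 4.04 and 4.07 in SAMR1 at 1 year, 5.33 and 4.21 in SAMP8 at 16 weeks and 4.06 and 4.99 in SAMP8 at 1 year. Probe set 1435172_PM_at read 3.74, 3.99, 3.85, 3.94, 4.81, 3.85, 3.99 and 4.76 over the same arrays. On both, SAMP8 16 weeks replicate 1 was the highest and SAMP8 1 year replicate 2 the next, the reverse of their order for *Cdhr1*. The remaining 6 arrays did not keep one order between the probe sets. The gaps were 1.12 and 0.93 for the first probe set and 0.96 and 0.77 for the second.

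*Tbx21* varied least. It read 3.04 and 2.86 in SAMR1 at 16 weeks, 3.12 and 3.10 in SAMR1 at 1 year, 3.28 and 3.06 in SAMP8 at 16 weeks and 3.08 and 3.26 in SAMP8 at 1 year. The same 2 arrays were highest, but by gaps of 0.22 and 0.18 within a range of 0.42 over all arrays, and they ranked 1249 and 1093 among the 19761 genes. The deposited table has no detection call, so whether the *Tbx21* signal lay above background cannot be said.

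*Doc2g* read 3.20 and 3.42 in SAMR1 at 16 weeks, 3.32 and 3.31 in SAMR1 at 1 year, 3.90 and 3.27 in SAMP8 at 16 weeks and 3.34 and 4.01 in SAMP8 at 1 year. The other 6 arrays spanned 3.20 to 3.42, so that neither of the 2 high arrays overlapped with them. The gaps were 0.63 and 0.67.

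*Th* had another array with a raised value. It read 4.51 and 3.91 in SAMR1 at 16 weeks, 3.53 and 3.30 in SAMR1 at 1 year, 4.75 and 3.61 in SAMP8 at 16 weeks and 3.71 and 5.32 in SAMP8 at 1 year. The 2 SAMP8 arrays that were high for *Cdhr1* were again the highest, and SAMR1 16 weeks replicate 1 came next. The gaps were 1.14 at 16 weeks and 1.61 at 1 year in SAMP8, and replicate 1 exceeded replicate 2 by 0.60 in SAMR1 at 16 weeks.

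**Figure D1:**
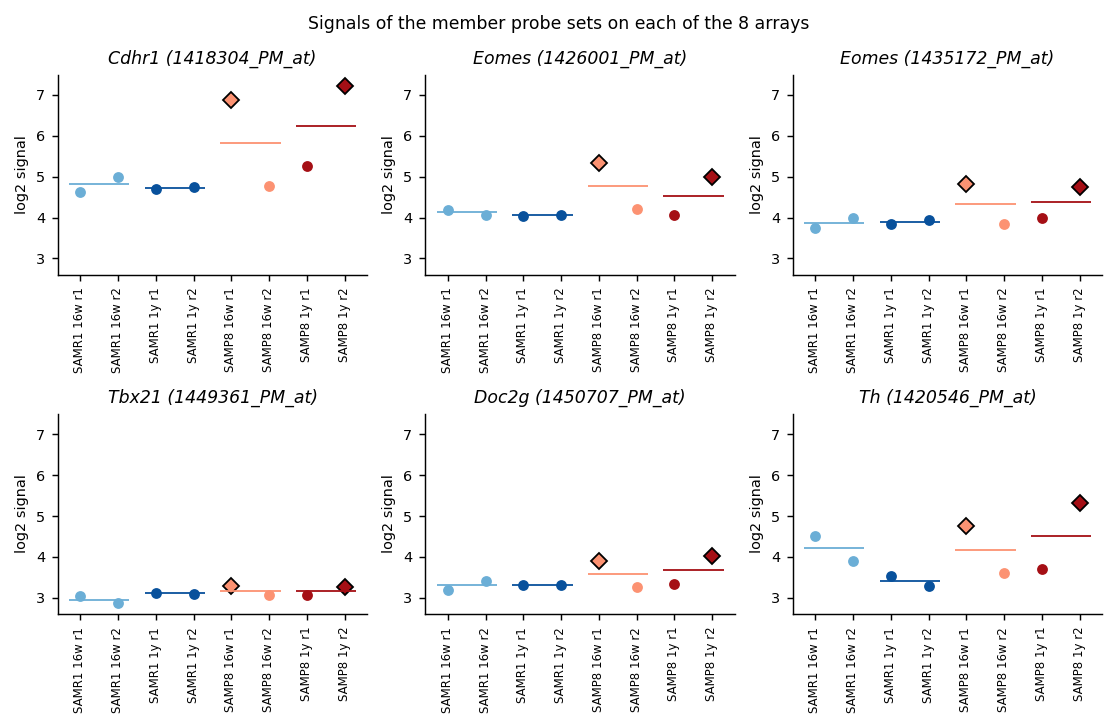
The log2 signal (vertical axis, same scale in every panel) of each of the 6 probe sets is plotted for each of the 8 arrays (horizontal axis; w, weeks; y, year; r, replicate). Points are arrays, lines are the means of the 2 arrays of a group, and diamonds mark SAMP8 16 weeks replicate 1 and SAMP8 1 year replicate 2, which are the 2 highest arrays in every panel.

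All 6 probe sets placed these 2 arrays above the other 6, as did 2.32% of all probe sets. Since the genes were chosen from such values, nothing is read from that share. The mean of the 2 arrays exceeded the mean of the other 6 by 2.20 for *Cdhr1*, a fold of 4.58. The mean deviation of the 5 genes from their own averages was 0.74 and 0.88 on these arrays, and it lay between -0.38 and -0.17 on the other arrays. Over the 8 arrays, which share strain and age within groups, Pearson's r with *Cdhr1* was 0.986 for *Doc2g*, 0.926 for *Eomes*, 0.824 for *Th* and 0.743 for *Tbx21*, and these values rest mainly on the 2 high arrays. The correlations are a description and carry no p.

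Against this spread, none of the 6 probe sets passed the whole-table test in any comparison. At an adjusted p under 0.05 in the limma fit, 0 of 6 were called in physiological aging, where 5.48% of all probe sets were called. The count was 0 of 6 also in accelerated aging (5.07% of all), among the early events (1.23%) and among the late events (0.688%). At an unadjusted p under 0.05 in this fit of all 8 arrays the count was also 0 of 6 in each comparison. Of all probe sets, 23.5%, 23.2%, 14.0% and 7.58% passed. A contrast of the age change in SAMP8 with that in SAMR1 likewise gave 0 of 6 by either rule, against 0.00222% of all probe sets at the adjusted threshold and 6.92% at the unadjusted one. In the fit of only the 4 arrays compared, the unadjusted limma p in physiological aging was 0.0109 for *Th* (adjusted p = 0.128) and 0.515 for *Cdhr1*. By its own threshold on unadjusted p and fold, the study lists *Cdhr1* among the genes higher in SAMP8 at 1 year. These fits are printed as a description, and a p that misses the threshold does not show that the groups had equal levels.

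In late events 4 of the 6 probe sets had both SAMP8 arrays above both SAMR1 arrays, as did 19.2% of all probe sets. *Cdhr1* averaged 6.25 ± 1.39 (SD, n = 2) in SAMP8 and 4.72 ± 0.04 (SD, n = 2) in SAMR1 at 1 year, a log2 difference of 1.52 with a 95% interval from -0.09 to 3.13 and an adjusted p of 0.7 in limma. *Th* differed by 1.10 (interval from -0.05 to 2.25, limma adjusted p = 0.695). *Doc2g* differed by 0.36 and *Eomes* by 0.48 on the probe set without overlap. Without SAMP8 1 year replicate 2 the difference of *Cdhr1* was 0.54, that of *Th* 0.29, that of *Doc2g* 0.02 and that of *Eomes* 0.10, and without replicate 1 they were 2.50, 1.91, 0.69 and 0.86.

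In early events the mean of *Cdhr1* was 5.83 ± 1.48 in SAMP8 and 4.81 ± 0.26 in SAMR1 (SD, n = 2 each), a log2 difference of 1.01 with a 95% interval from -0.60 to 2.62 and an adjusted p of 0.577 in limma. The arrays of the strains overlapped for this gene. Without SAMP8 16 weeks replicate 1 its difference was -0.03, and without replicate 2 it was 2.06. The first *Eomes* probe set differed by 0.64, which became 0.08 and 1.20, and *Doc2g* by 0.27, which became -0.04 and 0.59. *Th* differed by -0.03, and by -0.60 and 0.54 without each of these arrays. Both SAMP8 arrays lay above both SAMR1 arrays for 2 of the 6 probe sets, the first of *Eomes* and that of *Tbx21*, as they did for 18.4% of all probe sets.

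**Figure D2:**
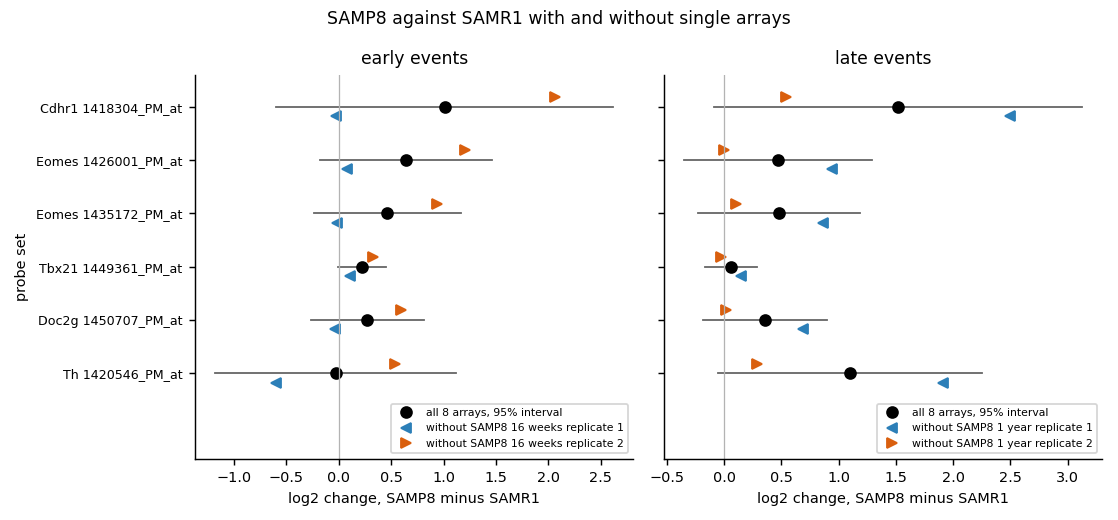
The log2 difference between SAMP8 and SAMR1 (horizontal axes) is plotted for each of the 6 probe sets (vertical axis) at 16 weeks, early events, and at 1 year, late events. Black points and lines are the limma estimates from all 8 arrays with their 95% intervals, and triangles are the estimates without 1 of the SAMP8 arrays of that age; every *Cdhr1* and *Th* interval includes 0, and *Cdhr1* at 16 weeks moves from -0.03 to 2.06 with the array left out.

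In SAMP8 the change of *Cdhr1* from 16 weeks to 1 year was 0.42, and it was 1.47 without SAMP8 16 weeks replicate 1 and -0.63 without replicate 2 of that age. The arrays of the 2 ages overlapped for all 6 probe sets, whereas 52.4% of all probe sets had no overlap. In SAMR1 the change of *Cdhr1* was -0.09, with a 95% interval from -1.70 to 1.52. *Th* was lower on both arrays at 1 year than on both at 16 weeks, by 0.80 on average (limma adjusted p = 0.389), and by 0.50 without SAMR1 16 weeks replicate 1. *Tbx21* was higher on both arrays at 1 year by 0.16 (adjusted p = 0.379), and these 2 of 6 probe sets without overlap stand beside 52.4% of all probe sets.

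The arrays were alike as a whole, with medians from 4.32 to 4.36 and correlations of 0.995 to 0.9981 within groups. Markers of the labelled tissue, cortex, were read on every array, and the 11 genes of the list of cortical projection neurons had ranges of 0.37 to 0.88. *Tbr1*, a T-box factor of deep-layer projection neurons, lay between 8.08 and 8.52. *Neurod6*, a factor of excitatory cortical neurons, had the widest range and was lowest on the 2 arrays high for *Cdhr1*, with 7.62 and 7.47 against 7.70 to 8.35 on the others, a mean difference of -0.36. It was the 1 gene of the 11 with both arrays below the other 6, an order shown by 351 of 19761 genes (1.78%), and its part in the members' levels was not tested. SAMR1 16 weeks replicate 1 differed from its partner by at least 0.5 in 10 of 10 striatal genes, with a median gap of -1.45, and in 1.59% of all genes. It was higher by at least 0.5 in 7 of 10 choroid plexus genes and in 0.825% of all genes. The choroid plexus gene *Ttr*, which encodes transthyretin, read 7.81 and 8.45 in SAMP8 at 16 weeks and 12.00 and 11.35 at 1 year, and was the only gene of 19761 with both gaps of at least 0.5 in the opposite direction to *Cdhr1*. Its part in the members' levels was not tested.

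A gap of at least 0.5 in the direction of *Cdhr1* was seen in both SAMP8 groups for 24 of 19761 genes (0.121%). Besides 4 of the 5 members they included 1 of 12 measured genes of the list of olfactory bulb projection neurons, 4 of 21 of the list of bulb interneurons, 2 of 13 of that of the olfactory nerve and 1 of 11 of that of neuroblasts. In the lists of cortical projection neurons, striatum, thalamus, hypothalamus, choroid plexus, photoreceptors, T and NK cells, T-box factors, C2-domain exocytosis genes and catecholamine genes the count was 0. The remaining 12 genes, named here after their values were seen, were *Lgr5*, *Gng4*, *Ptpro*, *Pbx3*, *Ablim3*, *X83313*, *Cacng5*, *Gpsm1*, *Ms4a15*, *Adcy8*, *Kank3* and *Isoc1*.

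**Figure D3:**
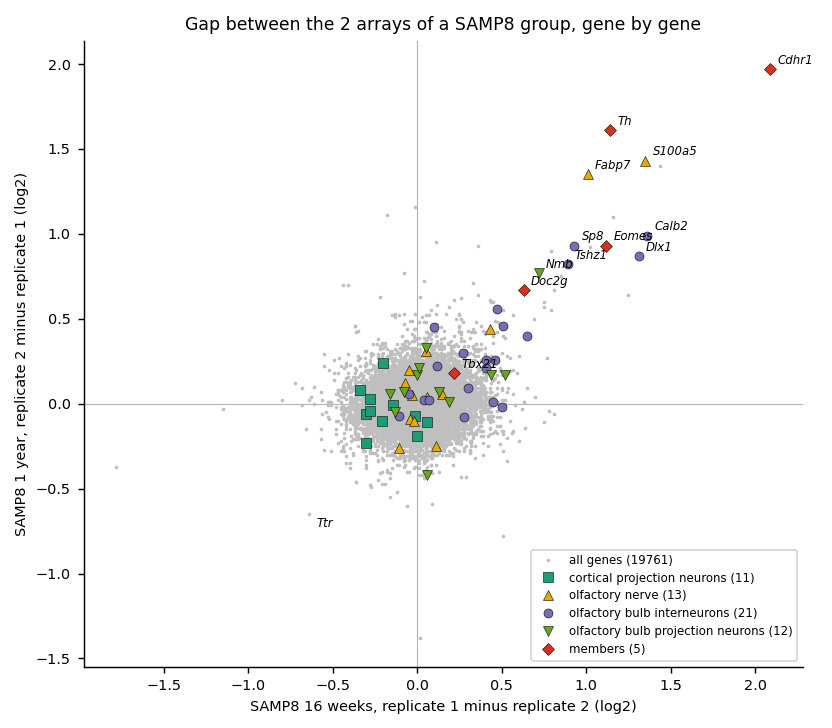
For each of 19761 genes the signal of replicate 1 minus replicate 2 in SAMP8 at 16 weeks (horizontal axis, log2) is plotted against replicate 2 minus replicate 1 in SAMP8 at 1 year (vertical axis, log2). Coloured symbols are the members and 4 gene lists; *Cdhr1*, at 2.09 and 1.97, is the gene farthest to the upper right, and the cortical projection neuron genes lie within 0.5 of 0 on both axes.

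Among the other projection neuron markers, *Nmb*, which encodes the peptide neuromedin B, moved with the members. It read 3.67 and 3.89 in SAMR1 at 16 weeks, 3.93 and 3.80 in SAMR1 at 1 year, 4.55 and 3.83 in SAMP8 at 16 weeks and 3.88 and 4.65 in SAMP8 at 1 year, so that the 2 high arrays stood clear of the rest. *Shisa3* placed the same arrays highest with smaller gaps (3.32 on each, and 2.80 to 3.15 elsewhere). The other 10 genes did not. *Uncx*, a homeobox gene of mitral and tufted cells, stayed between 2.75 and 2.91, and *Reln*, the reelin gene that Cajal-Retzius cells and cortical interneurons also express, between 8.24 and 8.83. *Slc17a6*, the vesicular glutamate transporter of subcortical and mitral neurons, was highest in SAMR1 16 weeks replicate 1 at 8.04 and lay between 6.37 and 7.05 elsewhere.

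Most interneuron genes of the bulb placed the same 2 arrays highest. In 14 of 21 measured genes both arrays stood above the other 6, as they did in 2.43% of all genes, and the median gap was 0.41 at 16 weeks and 0.26 at 1 year in that direction, against 0.00 and 0.00 over all genes. The list also split the SAMR1 16 weeks arrays, with a median of -0.26 for replicate 1 minus replicate 2. Gaps of at least 0.5 were seen there in 7 of 21 genes and in 1.59% of all genes. In SAMP8 at 16 weeks, 7 of 21 genes and 0.359% of all genes had such a gap in the direction of *Cdhr1*. *Dlx1*, a homeobox gene of forebrain interneurons, read 6.37 and 6.20 on the 2 arrays and 4.73 to 5.50 on the others. *Sp8*, a zinc-finger factor of periglomerular cells, read 4.32 and 4.52 against 3.17 to 3.59. *Tshz1*, a zinc-finger factor of bulb interneurons, read 8.33 and 8.76 against 7.35 to 7.94. *Calb2*, the calretinin gene of another periglomerular class, read 7.62 and 7.78 against 6.21 to 7.39, where 7.39 was again SAMR1 16 weeks replicate 1. The gaps were smaller than in these genes for *Gad1* and *Gad2*, general markers of inhibitory neurons. The brightest *Gad1* probe set read 10.94 and 10.90 on the 2 arrays and 10.51 to 10.82 elsewhere. Its other probe set read 8.92 and 9.07 against 7.70 to 8.73, with SAMP8 gaps of 0.31 and 0.34. *Gad2* overlapped between the 2 arrays and the others.

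Of the olfactory nerve genes, *S100a5*, a calcium-binding protein gene of olfactory sensory neurons, and *Fabp7*, a lipid-binding protein gene of ensheathing and other immature glia, followed the members. *Frzb*, which encodes a secreted Wnt antagonist, did so with smaller gaps, and these 3 of 13 measured genes had both arrays above the other 6. *S100a5* read 4.63 and 4.89 on the 2 arrays and 3.28 to 3.56 on the others, and *Fabp7* read 9.08 and 9.41 against 7.90 to 8.47. *Frzb* read 6.64 and 6.72 against 5.89 to 6.28. *Omp*, the defining marker of mature sensory neurons, whose cell bodies lie in the nose, did not follow them, with 3.76 and 3.86 against 3.67 to 3.83. Neither did *Gng13* or *Gnal*, both genes of G protein subunits. *Dcx*, the doublecortin gene of migrating neuroblasts, read 7.15 and 7.24 on the 2 arrays and 6.42 to 6.80 elsewhere. Both arrays stood above the other 6 in 4 of 11 measured neuroblast genes, against 2.43% of all genes. These 4 included *Dcx*, *Sox4* and *Cd24a*, whereas *Sox11* overlapped between the 2 arrays and the others. The margin of *Cd24a* was small, with 6.81 and 6.35 against 6.01 to 6.32, and its other probe sets did not have both arrays highest. The proliferation genes *Mki67* and *Top2a* kept to 2.86 to 3.08 and 3.67 to 3.86.

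Summed over a list on the linear scale, the interneuron genes came to 6450 and 6340 units on the 2 arrays and 4570 to 5610 on the others. Such a sum weighs bright genes most, and the brightest of this list was *Gad1*, a general marker of inhibitory neurons. The olfactory nerve genes came to 2030 and 2180 against 1560 to 1770. Most of that excess was *Fabp7*, and without it the sums were 1489 and 1495 against 1206 to 1500 and overlapped. The projection neuron list came to 1690 and 1560 against 1470 to 1700 and overlapped. The 5 members themselves came to 209 and 248 units against 72 to 86.7. The part of these lists in the members' levels was not tested.

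**Figure D4:**
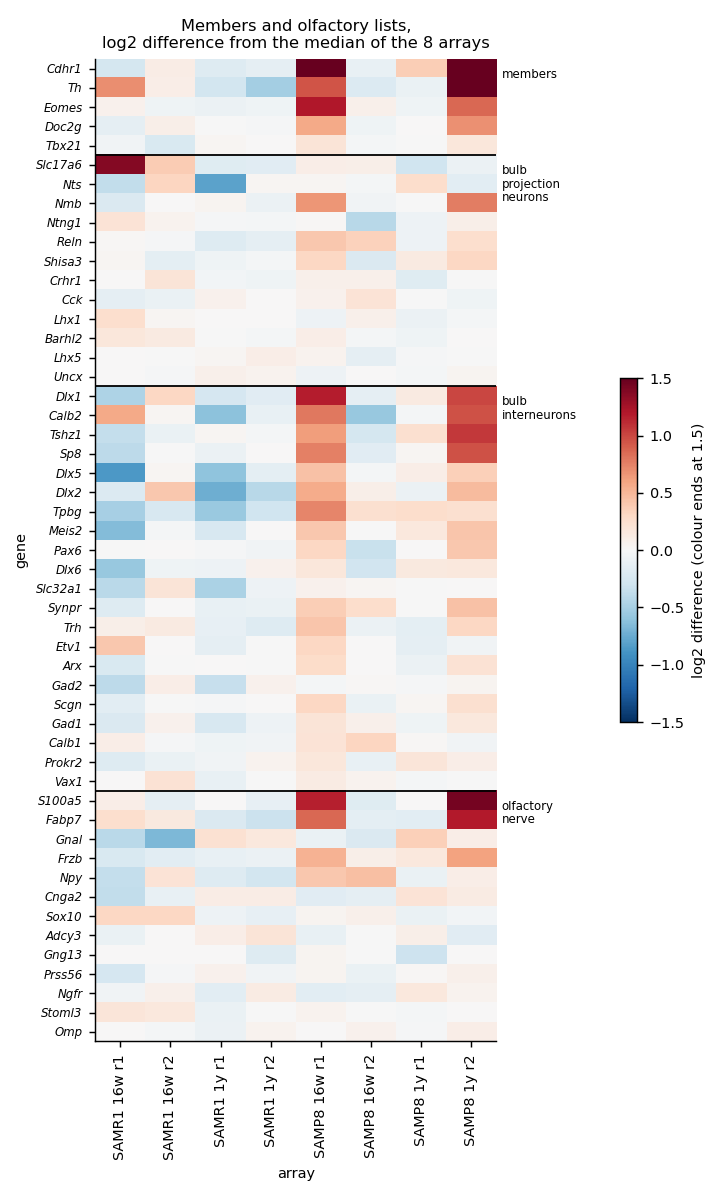
Each row is a member or a measured gene of the lists of bulb projection neurons, bulb interneurons and olfactory nerve, each column is an array, and the colour is the log2 difference from the gene's median over the 8 arrays, with the scale ending at 1.5. The columns of SAMP8 16 weeks replicate 1 and SAMP8 1 year replicate 2 are red for the members except *Tbx21*, for most interneuron genes and for *Nmb*, *S100a5* and *Fabp7*. They are near white for *Tbx21*, *Uncx* and *Omp*.

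Of the 46 measured genes of these 3 lists, the whole-table fit called 3 in physiological aging (5.17% of all genes), 0 in accelerated aging (5.09%), 1 among the early events (1.07%) and 0 among the late events (0.617%). In early events *Tpbg*, a cell-surface glycoprotein gene of bulb granule cells, was higher in SAMP8 by 0.85 ± 0.16 (SE, limma adjusted p = 0.0494), with signals of 7.17 and 6.67 in SAMP8 and 5.94 and 6.20 in SAMR1. This call was lost under 10 of 17 alternatives, among them the fits without SAMP8 16 weeks replicate 1 or without SAMR1 16 weeks replicate 1, with an adjusted p between 0.027 and 0.278 over all of them. In physiological aging *Gnal*, the olfactory G protein alpha subunit that the striatum also expresses, rose by 0.73 ± 0.11 (SE, limma adjusted p = 0.0144) on its brightest probe set. That probe set read 8.65 and 8.38 at 16 weeks and 9.28 and 9.21 at 1 year. The other *Gnal* probe set read 7.96 and 8.45 at 16 weeks and 8.20 and 8.38 at 1 year, so its ages overlapped. *Sox10*, a factor of oligodendrocytes and ensheathing glia, fell by 0.41 ± 0.06 (SE, limma adjusted p = 0.013). *Slc17a6* fell by 1.06 ± 0.25 (SE, limma adjusted p = 0.0489), and the change was -0.56 without SAMR1 16 weeks replicate 1. The calls of *Gnal* and *Sox10* were lost under 4 of 17 alternatives and that of *Slc17a6* under 10. None of these 4 genes had the 2 high arrays above the other 6. At an unadjusted p under 0.05 the counts were 8, 7, 12 and 5 of the 46 genes in the 4 comparisons in that order. Beside them stand 23.5%, 23.2%, 14.0% and 7.58% of all probe sets. These shares are over probe sets, whereas the counts take each gene by its brightest probe set. Of the 12 in early events 9 were higher in SAMP8 and 3 were lower. The 5 in late events, *Dlx2*, *Frzb*, *Reln*, *Synpr* and *Tpbg*, were all higher in SAMP8. With a fold above 1.1 required as well, 6.99% of all probe sets were higher in SAMP8 in early events and 6.97% were lower. In late events these shares were 3.54% and 4.03%.

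The other genes of the members' families did not show the pattern. Of 13 measured T-box genes besides *Eomes* and *Tbx21*, 0 had the 2 arrays above the other 6 and the widest range was 0.44, that of *Tbr1*. *Tbx18* and *Tbx3* read 3.01 to 3.41 and 3.69 to 4.01. Of 9 exocytosis genes related to *Doc2g*, 0 had the 2 arrays highest. The brightest probe set of *Doc2b*, a calcium sensor of vesicle release, was lower at 1 year than at 16 weeks in SAMR1 by 0.51 ± 0.09 (SE, limma adjusted p = 0.0185). The other *Doc2b* probe set went the other way, with 3.97 and 4.05 at 16 weeks and 4.11 and 4.17 at 1 year. The photoreceptor list, which could share *Cdhr1*, stood at 126 to 137 linear units on the 8 arrays, and that of T and NK cells, which could share *Eomes* and *Tbx21*, at 190 to 201. On both lists the 2 arrays lay inside the range of the others.

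*Th* was set beside the other catecholamine genes. The dopamine transporter gene *Slc6a3* read 6.32 in SAMR1 16 weeks replicate 1, 4.25 and 4.34 on the 2 SAMP8 arrays high for *Th*, and 3.99 to 4.14 on the others. *Ddc*, the decarboxylase that follows tyrosine hydroxylase, read 6.41 in SAMR1 16 weeks replicate 1 and 4.47 to 5.09 elsewhere, with 4.52 and 4.64 on the 2 SAMP8 arrays. *Slc18a2*, the vesicular monoamine transporter, read 4.35 in that SAMR1 array and 2.70 to 3.14 elsewhere, with 2.72 and 2.70 on the 2 SAMP8 arrays. SAMR1 16 weeks replicate 1, where *Th* was raised, had raised values of these 3 genes. *Calb2* was raised there too, at 7.39, and it was highest on the 2 SAMP8 arrays, as were the other members. What the *Th* values share with any of these genes was not tested. None of the 16 measured catecholamine genes had both SAMP8 gaps of at least 0.5, and the noradrenaline gene *Dbh* stayed between 6.20 and 6.43.

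**Figure D5:**
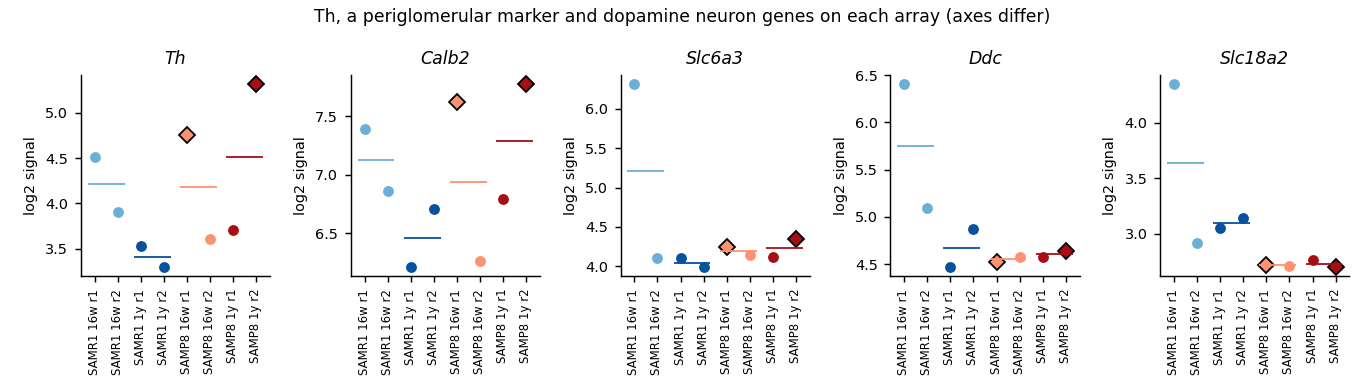
The log2 signals (vertical axes, which differ between panels) of *Th*, *Calb2*, *Slc6a3*, *Ddc* and *Slc18a2* are plotted on each of the 8 arrays (horizontal axis). Points are arrays, lines are group means and diamonds mark the 2 SAMP8 arrays high for *Cdhr1*; *Slc6a3*, *Ddc* and *Slc18a2* are highest in SAMR1 16 weeks replicate 1, and *Th* and *Calb2* on the diamonds.

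The genes most like the members were ranked by Pearson's r with the mean deviation of the 5 members, over the 8 arrays, among 267 genes with a range of at least 1. The first 10 were *S100a5* (r = 0.990), *Lgr5* (0.988), *Gng4* (0.983), *Ablim3* (0.978), *Cacng5* (0.973), *Fabp7* (0.963), *X83313* (0.946), *Ndnf* (0.939), *Sp8* (0.931) and *Dlx1* (0.908). *Lgr5*, which encodes an R-spondin receptor, read 5.98 and 6.09 on the 2 arrays and 4.43 to 4.69 on the others. *Gng4*, a G protein gamma subunit gene, read 8.59 and 8.76 against 7.32 to 7.67. By Spearman's rank correlation 3 of these 10 genes stayed among the first 10, and by the correlation of deviations from the group means 8 did.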

How the data were processed

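RNA of 8 cortex samples was hybridised to GeneAtlas strips of the type MG-430 PM. The authors summarised the arrays by RMA and deposited log2 signals, 1 value for each probe set and array; the labelling kit differs between the sources (WT PLUS, 3′ IVT PLUS or 3′ IVT Express). The 4 deposited tables of the authors' own comparisons, with fold changes, p-values and FDR, were not used, and the series matrix held the same values as the signal table (0 differed). Of 45077 probe sets, 40 controls were left out. Group means were estimated from the 8 arrays with limma 3.58.1 (R 4.3.3), which left 4 residual degrees of freedom, and p-values were adjusted by Benjamini-Hochberg over 45037 probe sets. Precision is limited by the number of arrays.

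The members and 14 gene lists were chosen with earlier results of these data known. The text names all members, any gene of the olfactory lists, up to 4 genes of widest range in each other list and the 10 genes most like the members; *Mki67*, *Top2a*, *Dbh* and the other genes with both gaps were named after their values were seen. Lists used the brightest probe set of each gene; *Lbhd2*, *Sp9*, *Rtp1*, *Tbx10* and *Qdpr* were not matched. Promoters of all 5 members came from a RefSeq table.

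Alternatives were fits of only the 4 arrays compared, the replicate number as a block, another variance model, other scalings and a filter at a mean signal of 5. The others were array weights, the series matrix values and each array left out in turn, or both high SAMP8 arrays together.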

Additional observations from a re-analysis of the deposited data

How the results depend on the processing

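Under each of the 17 alternatives (16 for the difference between the strains), 0 of the members' probe sets were called in the comparisons. Their uncalled changes did change sign when single arrays were left out. Among these, *Cdhr1* in accelerated aging (0.42) reached -0.63 and in early events (1.01) -0.03, and in accelerated aging *Th* (0.34) reached -0.47 and the brighter *Eomes* probe set (-0.25) 0.31. The counts over all probe sets were 2466 in physiological aging (0 with only the 4 arrays compared, 3059 with the trended robust variance model), 2283 in accelerated aging (0 without both high SAMP8 arrays, 3671 without either SAMR1 16 weeks array), 554 in early events (53 without both high arrays, 1128 without SAMR1 16 weeks replicate 2) and 310 in late events (41 without both high arrays, 631 with array weights). For the difference between the strains the count was 1 (0 with the replicate block, 52 without SAMR1 16 weeks replicate 2). Of the 46 genes of the olfactory lists, 3 were called in physiological aging (0 to 4), 0 in accelerated aging (0 to 4), 1 in early events (0 to 3) and 0 in late events (0 to 1). The cause of these moves was not tested. With any probe set of a gene in place of the brightest, the counts of each olfactory list were the same.

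The correlations of the replicate gaps between groups were low, at 0.06, 0.20, 0.08, 0.03, -0.02 and -0.09. The value of 0.20 was between SAMR1 and SAMP8 at 16 weeks. These values do not settle whether the replicate numbers pair the arrays. With the replicate number as a block, 0 of the 6 probe sets were called in each comparison, 2699, 2508, 552 and 341 of all probe sets were called in the 2 age comparisons (SAMR1 first) and the 2 strain comparisons (16 weeks first), and the *Cdhr1* change in late events was 1.52 (limma adjusted p = 0.711). With 2 arrays in a group the spread of a member rests on 1 difference, and no source gives a detection call for dim probe sets.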
